A study of Mus musculus with 22 samples.

Results

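Microglia are the resident macrophages of brain tissue, and 9 genes that mark them and the macrophages at the borders of the brain were followed here in whole mouse brain. The genes were Aif1, Cx3cr1, Csf1r, C1qa, C1qb, C1qc, Tyrobp, Ctss and Mrc1. They were taken by name, not by their values: a probe belonged to the set when the gene name in the scanner files was 1 of the 9 symbols or an older synonym. The set came to 13 of 41174 probes and 9 of 20640 gene symbols. Csf1r had 3 probes, Aif1 and Cx3cr1 had 2 each, and C1qc was listed under its older name C1qg.

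The study compared mice labelled Agtr2 knockout with control mice at postnatal day 1 (P1) and at embryonic day 15 (E15). Each 2-colour Agilent array carried the RNA of 1 knockout and 1 control brain, and most knockout brains were hybridized in both dye orientations. At P1 there were 4 knockout and 4 control animals on 8 arrays, and at E15 there were 8 knockout and 6 control animals on 14 arrays. Agtr2 encodes the angiotensin AT2 receptor. The labels state the genotype only as knockout or control and give no strain, allele, sex or treatment, and what the knockout and control animals share in background is not stated either. E15 replicates 3 and 4 had a single dye orientation. E15 replicates 1 and 2 had both orientations, but each against a different control (controls 6 and 1, and controls 2 and 3). In these 2 replicates dye and control animal cannot be told apart. Some E15 controls served several knockout animals, which links replicates 1, 4 and 7 and replicates 2, 3 and 8. Slices were cut from whole frozen brains for RNA, so a change in a gene can reflect fewer cells of a type or less RNA per cell, which cannot be told apart in bulk RNA.

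Microglia descend from macrophage progenitors of the yolk sac that enter the brain before birth and depend on the receptor Csf1r. They express the fractalkine receptor Cx3cr1 and the adaptor Tyrobp, which passes on the signal of Trem2 and related receptors. They are also the main source in the brain of C1q, the protein that starts the classical complement pathway and tags synapses for removal, and its 3 chains are encoded by C1qa, C1qb and C1qc, which lie next to each other on chromosome 4. Ctss encodes the lysosomal protease cathepsin S, and Aif1 encodes Iba1, a calcium-binding protein of the cytoskeleton used to stain microglia. Mrc1, the mannose receptor CD206, marks the perivascular and meningeal macrophages more than the microglia inside the tissue.

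The factor PU.1, encoded by Spi1, is required for macrophages and binds DNA that holds the letters GAGGAA. Promoter windows of 250 bases before the gene start were read from RefSeq (GRCm38.p6) for the 6 members found in that table, and both GAGGAA and its reverse complement TTCCTC were searched. The letters occurred in 5 of the 6 windows, against 23.3% of all 32851 windows of that length. The 4 windows below belong to genes described in the results, a C1q pair that lies side by side, Aif1 and Mrc1. They are written 5′ to 3′ on the gene's own strand, with the matched letters in capitals, and lie at chr4:136886201-136886450 (minus strand) for C1qb, chr4:136892915-136893164 (minus strand) for C1qc, chr17:35176053-35176302 (minus strand) for Aif1 and chr2:14229164-14229413 (plus strand) for Mrc1.
C1qb: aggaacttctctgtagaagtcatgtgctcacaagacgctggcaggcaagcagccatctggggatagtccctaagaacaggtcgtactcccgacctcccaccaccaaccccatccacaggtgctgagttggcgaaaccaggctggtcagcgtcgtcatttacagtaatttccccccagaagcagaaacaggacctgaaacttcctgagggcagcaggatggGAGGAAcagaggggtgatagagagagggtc
C1qc: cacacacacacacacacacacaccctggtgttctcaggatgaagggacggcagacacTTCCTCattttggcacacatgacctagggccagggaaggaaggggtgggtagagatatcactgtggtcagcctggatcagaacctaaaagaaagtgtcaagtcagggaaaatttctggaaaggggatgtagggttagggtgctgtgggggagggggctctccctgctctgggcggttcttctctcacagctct
Aif1: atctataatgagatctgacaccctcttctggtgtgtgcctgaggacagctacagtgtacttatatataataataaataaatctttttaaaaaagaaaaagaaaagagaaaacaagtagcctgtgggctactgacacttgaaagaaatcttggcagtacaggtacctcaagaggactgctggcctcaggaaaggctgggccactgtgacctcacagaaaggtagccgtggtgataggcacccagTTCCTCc
Mrc1: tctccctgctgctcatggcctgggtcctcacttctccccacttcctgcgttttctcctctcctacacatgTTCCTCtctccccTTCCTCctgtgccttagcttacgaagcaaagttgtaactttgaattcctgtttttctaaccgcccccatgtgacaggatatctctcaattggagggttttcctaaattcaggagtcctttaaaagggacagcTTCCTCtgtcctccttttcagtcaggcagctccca
The Mrc1 window held 3 matches, starting 180, 167 and 35 bases before the gene start, and the others shown held 1 each. The window of Cx3cr1 held none. A match is a run of letters only and says nothing about binding in these brains. Spi1 RNA itself had log2 changes, P1 over E15, of -0.06 in knockout brain (SE 0.06, limma adjusted p = 0.469) and 0.05 in control brain (SE 0.06, limma adjusted p = 0.518). It is named here for its motif and not by the rule for named genes.

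The share of spots well above background was 71.1% to 89.4% on the P1 arrays and 74.7% to 89.2% on the E15 arrays. Spots marked as outliers by the scanner software numbered 287 to 3343 per P1 array and 52 to 381 per E15 array. The probe for Agtr2 did not separate the genotypes: its log2 knockout over control ran from -0.13 to 0.29 at P1 and from -2.10 to 0.87 at E15, and whether it lies in the deleted part is unknown, so it checks nothing about the labels. All P1 arrays were scanned on 1 day with a later version of the scanner software than the E15 arrays, so scan batch and age cannot be told apart. The E15 arrays were scanned on 3 days, with knockout replicates 1 to 4 on scan day 3 and replicates 5 to 8 on days 1 and 2.

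All 13 probes were well above background in most channels. The lowest counts were those of the Csf1r probe A_52_P602091, with 6 of 8 knockout channels at P1, and no spot was saturated. Values below are log2 levels, the log2 of background-corrected and normalized signal averaged over the arrays of an animal. An offset of 50 signal units was added, which puts a floor of 5.64 under every level and makes changes of dim genes look smaller. Levels of different genes come from different probes and were not compared with each other. For a gene with several probes the brightest on average stands for it, and the other probes are given where they differ.

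The age comparison asked how much of each RNA newborn brain held relative to E15 brain. In control brain 4 of the 9 genes changed at an adjusted p under 0.05, where 36.0% of all 25174 features did, so the members changed about as often as features in general. Aif1 and Tyrobp were higher at P1, where 13.5% of features were called higher, and C1qc and Mrc1 were lower, where 22.4% were called lower. In knockout brain 2 of the 9 genes changed, against 26.5% of features. C1qa and Tyrobp were higher there (11.4% of features), and no member was lower (15.2% of features). The median change of the 9 genes was -0.04 in knockout brain and 0.05 in control brain, against medians over all features of -0.07 and -0.08. In control brain 5 members had changes above 0 and 4 below 0, and in knockout brain 4 were above and 5 below. How many of all features had ages that did not overlap was not counted. A lack of overlap given below therefore only describes the values of that gene.

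**Figure D1:**
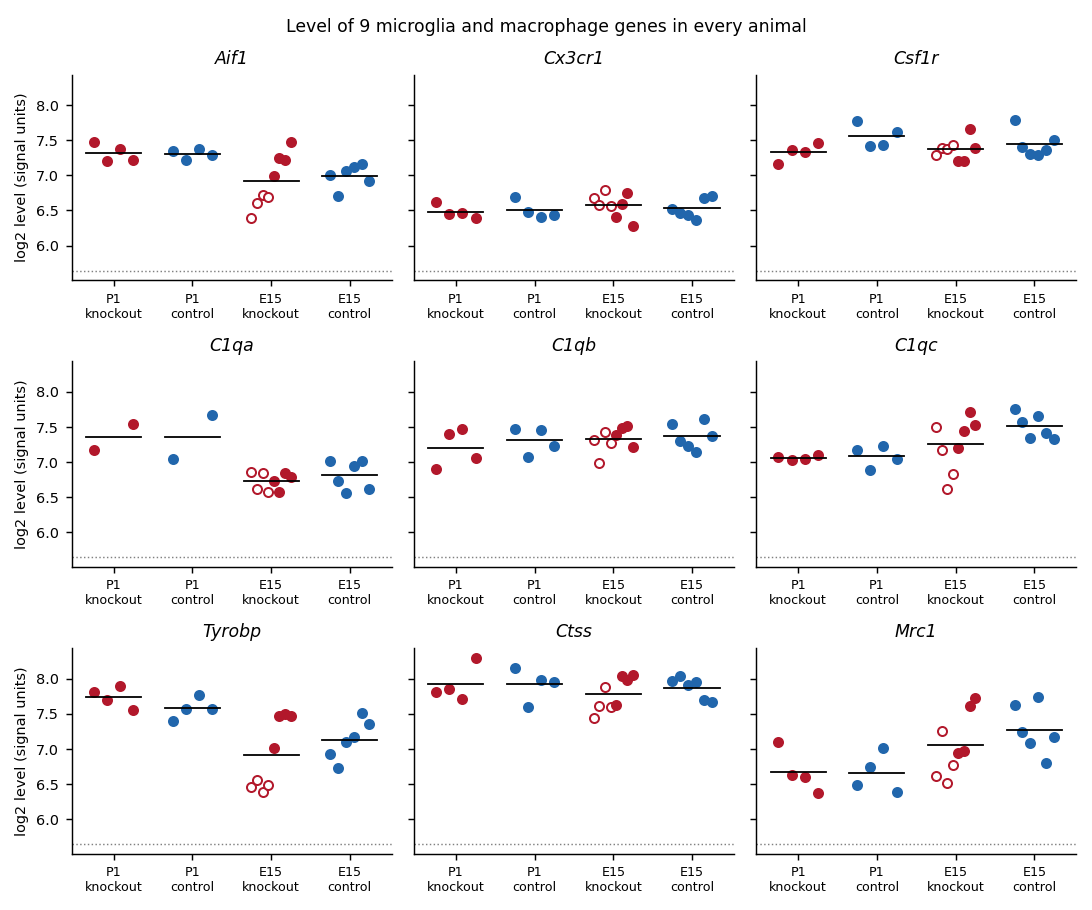
Log2 level (y axis) of each of the 9 genes in every animal, by group (x axis); lines are group means, the dotted line is the floor of 5.64 set by the offset, and open E15 knockout points are replicates 1 to 4, scanned on day 3. C1qc in control brain lies at 6.89 to 7.22 at P1 and 7.34 to 7.76 at E15, and the open Tyrobp points lie at 6.38 to 6.56, below all other E15 knockout points.

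Of the 3 chains of C1q, C1qa was called higher in knockout brain, C1qc lower in control brain and C1qb in neither. C1qa levels in knockout brain were 7.18 and 7.54 in the 2 P1 animals with a value (replicates 3 and 4). The levels of replicate 3, knockout and control, rest on a single array. The 8 E15 knockout animals had a lowest level of 6.57, a median of 6.77 and a highest of 6.86. In control brain the 2 P1 values were 7.05 and 7.67, and the 6 E15 animals ran from 6.56 through a median of 6.84 to 7.02. Every measured P1 animal was thus above every E15 animal of its genotype. The log2 change was 0.63 in knockout brain (SE 0.12, 1.55-fold, limma adjusted p = 0.00412) and 0.54 in control brain (SE 0.19, 1.46-fold, limma adjusted p = 0.0516), so the threshold was passed in knockout brain and narrowly missed in control brain.

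C1qa spots were marked as outliers on 5 of the 8 P1 arrays and on none of the 14 E15 arrays, which is why only 2 P1 animals of each genotype had a value. With the marked spots kept, P1 levels were 7.84, 7.73, 7.82 and 7.54 in knockout brain and 7.73, 7.66, 7.32 and 7.67 in control brain, all above the E15 animals. The change was then 1.00 in knockout brain (limma adjusted p = 1.09e-06) and 0.78 in control brain (limma adjusted p = 0.000539). The E15 scan days made little difference to C1qa. Against the arrays of days 1 and 2 the change was 0.63 in knockout and 0.57 in control brain, and against those of day 3 it was 0.64 and 0.51.

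C1qc, the neighbouring gene, was lower at P1 in control brain. Its P1 levels in control brain were 7.17, 6.89, 7.22 and 7.05, and the 6 E15 controls ran from 7.34 through a median of 7.49 to 7.76, so the groups did not overlap. The log2 change was -0.43 (SE 0.10, 0.741-fold, limma adjusted p = 0.0087). In knockout brain the P1 levels lay close together at 7.07, 7.02, 7.04 and 7.11, while the 8 E15 animals spread from 6.62 through a median of 7.33 to 7.71. The change there was -0.19 (SE 0.18, limma adjusted p = 0.452). It depended on which E15 arrays were used: it was -0.41 against those of scan days 1 and 2 (limma adjusted p = 0.0235) and 0.03 against those of day 3 (limma adjusted p = 0.917). In control brain the E15 arrays of days 1 and 2 and those of day 3 both gave a lower P1 level, at -0.37 (limma adjusted p = 0.0177) and -0.40 (limma adjusted p = 0.0302).

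C1qb lies next to C1qc and was not called in either genotype. Its P1 levels were 6.90, 7.40, 7.47 and 7.07 in knockout brain and 7.47, 7.08, 7.45 and 7.23 in control brain. At E15 it ran from 6.99 through a median of 7.35 to 7.51 in knockout brain and from 7.14 through 7.33 to 7.62 in control brain. The groups overlapped, and the changes were -0.12 (SE 0.12) and -0.06 (SE 0.11). Whether the 3 chains differ from each other in their change was not tested. The files place the probes at 135777752 to 135777811 (C1qa), 135761921 to 135761980 (C1qb) and 135771109 to 135771168 (C1qc) on the minus strand of chromosome 4, on a build they do not state.

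Tyrobp, the signalling adaptor, was higher at P1 in both genotypes. Its P1 levels in knockout brain were 7.82, 7.69, 7.90 and 7.56, and the 8 E15 knockout animals ran from 6.38 through a median of 6.79 to 7.50, so no P1 animal overlapped with E15. The log2 change was 0.82 (SE 0.24, 1.77-fold, limma adjusted p = 0.0234). In control brain P1 levels were 7.40, 7.57, 7.77 and 7.57, while E15 levels ran from 6.74 through a median of 7.14 to 7.52, with an overlap of the groups. The change there was 0.44 (SE 0.14, 1.36-fold, limma adjusted p = 0.0326).

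The Tyrobp level at E15 moved with scan day. Knockout replicates 1 to 4, scanned on day 3, had 6.46, 6.56, 6.38 and 6.49, while replicates 5 to 8, scanned on days 1 and 2, had 7.01, 7.47, 7.50 and 7.47. Against the E15 arrays of days 1 and 2 the change was 0.38 in knockout brain (limma adjusted p = 0.0609) and 0.19 in control brain (limma adjusted p = 0.197). Against those of day 3 it was 1.27 (limma adjusted p = 5.57e-05) and 0.87 (limma adjusted p = 0.00047). The direction was the same against both sets of arrays in both genotypes, and the threshold was passed against day 3 only. What besides the day differed between these arrays was not tested, and this division by day was an alternative added after seeing the data.

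Aif1, which encodes Iba1, also varied with scan day at E15. P1 levels were 7.47, 7.21, 7.38 and 7.22 in knockout brain and 7.34, 7.21, 7.38 and 7.30 in control brain. E15 levels ran from 6.40 through a median of 6.86 to 7.48 in knockout brain and from 6.70 through 7.04 to 7.17 in control brain, where the ages did not overlap. The change was 0.40 in knockout brain (SE 0.18, limma adjusted p = 0.124) and 0.31 in control brain (SE 0.09, 1.24-fold, limma adjusted p = 0.0227). Against the E15 arrays of scan days 1 and 2 it was 0.08 (limma adjusted p = 0.618) and 0.16 (limma adjusted p = 0.102), and against those of day 3 it was 0.71 (limma adjusted p = 0.00153) and 0.65 (limma adjusted p = 0.00577). The second Aif1 probe, A_52_P2754, gave 0.03 in knockout and -0.08 in control brain. It was dimmer than the first, with mean control levels of 6.47 at P1 and 6.55 at E15. With both probes averaged the change in control brain was 0.12 (limma adjusted p = 0.214).

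Mrc1, the mannose receptor of border macrophages, was lower at P1 in control brain. Its P1 levels there were 6.49, 6.74, 7.01 and 6.39, and E15 levels ran from 6.80 through a median of 7.20 to 7.75, with P1 replicate 3 inside the E15 range. The log2 change was -0.62 (SE 0.19, 0.651-fold, limma adjusted p = 0.0256), and -1.17 with no offset added (limma adjusted p = 0.00733). In knockout brain P1 levels were 7.10, 6.63, 6.61 and 6.37 and E15 levels ran from 6.51 through 6.96 to 7.73. The change was -0.38 (SE 0.23, limma adjusted p = 0.244), with the groups overlapping. Against the E15 arrays of scan days 1 and 2 the change was -0.64 in knockout brain (limma adjusted p = 0.0653) and -0.58 in control brain (limma adjusted p = 0.0458), and against those of day 3 it was -0.11 (limma adjusted p = 0.694) and -0.43 (limma adjusted p = 0.141).

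The receptors Cx3cr1 and Csf1r and the protease gene Ctss were not called in either genotype. Cx3cr1 levels at P1 were 6.62, 6.45, 6.47 and 6.39 in knockout brain and 6.69, 6.48, 6.41 and 6.43 in control brain, inside or close to the E15 ranges of 6.27 to 6.80 and 6.36 to 6.71. The 95% interval of its change ran from -0.31 to 0.11 in knockout brain and from -0.22 to 0.17 in control brain. For Csf1r the P1 levels were 7.17, 7.37, 7.33 and 7.46 in knockout brain and 7.77, 7.42, 7.43 and 7.61 in control brain. Its intervals ran from -0.23 to 0.16 and from -0.13 to 0.37. Ctss levels at P1 were 7.82, 7.85, 7.71 and 8.30 in knockout brain and 8.16, 7.60, 7.99 and 7.96 in control brain, with intervals of -0.16 to 0.45 and -0.21 to 0.31. These intervals are on the scale with the offset of 50, which shrinks changes, most of all for Cx3cr1, whose levels lie closest to the floor. With no offset the change of Cx3cr1 was -0.25 in knockout and -0.03 in control brain (limma adjusted p = 0.451 and 0.913). The other probes of Csf1r and Cx3cr1 gave changes between -0.06 and 0.14.

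**Figure D2:**
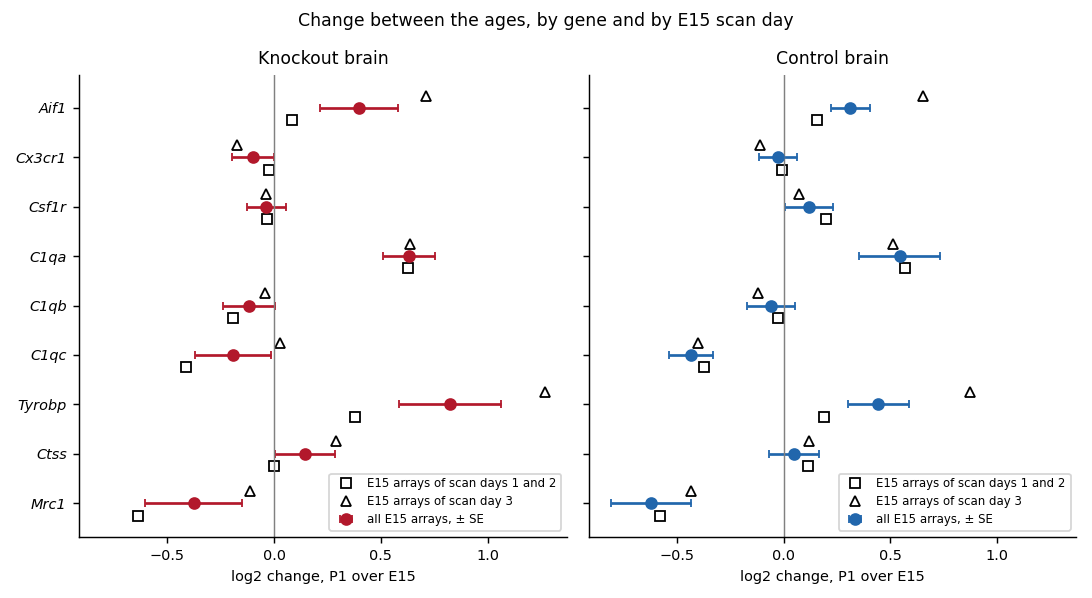
Log2 change from E15 to P1 (x axis) of each gene in knockout and control brain; circles with bars are means ± SE over all arrays, and squares and triangles use only the E15 arrays of scan days 1 and 2 or of day 3. C1qa keeps its value across scan days (0.63 and 0.64 in knockout brain), while Tyrobp in knockout brain lies at 0.38 and 1.27.

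Of 37 further genes of these cells, 6 were higher and 7 lower at P1 in control brain, with a median change of 0.02. In knockout brain 6 were higher and 5 lower. Ncf1, a subunit of the phagocyte oxidase, was called higher, with a mean level in control brain of 10.77 at P1. Its E15 signal was well above background in 8 of 14 control and 4 of 14 knockout channels. It passed the filter through P1, so its E15 level is not well measured and no size is given for this probe. Its second probe gave a change of 1.77 in control brain. Msr1, a scavenger receptor, had a change of 2.48 (limma adjusted p = 9.53e-06, E15 signal well above background in 10 of 14 control channels), while its second probe gave -0.06. Runx1, a transcription factor of blood cells that is also expressed in some neurons, had 1.23 (limma adjusted p = 0.00643), and its second probe gave -0.09. Lyz2, the lysozyme of macrophages, had -0.61 (limma adjusted p = 0.0484) and 0.04 on its second probe.

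Among 18 genes enriched in microglia over other macrophages, 5 were higher and 5 lower at P1 in control brain (median -0.10). In knockout brain 2 were higher and 3 lower. Cst3, the protease inhibitor cystatin C, which astrocytes also make, rose by 0.95 (SE 0.15, limma adjusted p = 0.000903). Tmem119, a surface protein of mature microglia, fell by 0.78 (SE 0.22, limma adjusted p = 0.0181), and the Golgi protein gene Golm1 by 0.71 (limma adjusted p = 0.00558).

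Of 13 genes of border-associated macrophages, the cells that Mrc1 also marks, 1 was higher and 6 were lower at P1 in control brain, with a median of -0.33. In knockout brain 1 was higher and 1 lower, with a median of -0.25. Colec12, a scavenger receptor also made by vessels and fibroblasts, fell by 1.08 in control brain (SE 0.28, limma adjusted p = 0.012), and F13a1, a clotting factor subunit of macrophages, by 0.96 (SE 0.15, limma adjusted p = 0.00101). Stab1, a scavenger receptor, fell by 0.82 (limma adjusted p = 0.00027), and its second probe gave 0.07. That probe was dim in control brain, at 6.43 at P1 and 6.37 at E15. Pf4, a chemokine of platelets and border macrophages, fell by 0.79 (limma adjusted p = 0.000197). Markers of the meninges and fibroblasts, which form the borders where such macrophages sit, moved the same way: 10 of 19 tested were lower in control brain and none higher (median -0.93), and 4 of 19 were lower in knockout brain (median -0.85). The mean level of these markers ran from 7.32 to 7.73 in P1 knockout animals and from 7.42 to 7.73 in P1 controls, against 7.74 to 10.09 in E15 knockout animals and 7.71 to 9.75 in E15 controls. The part of the surrounding tissue in the border macrophage values was not tested.

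The ligands of the receptors were mostly not called. Of 8 such genes 2 were higher and 1 was lower in both genotypes. Cx3cl1, the neuronal ligand of Cx3cr1, rose by 1.15 in knockout brain (limma adjusted p = 0.00118) and by 1.61 in control brain (SE 0.18, limma adjusted p = 0.000152). Its second probe gave 0.21 and 0.24, and lay near the floor in control brain, at 6.13 at P1 and 5.89 at E15. Csf3, a growth factor of neutrophils, rose by 0.89 in control brain (limma adjusted p = 0.000932, E15 signal well above background in 10 of 14 control channels), and the chemokine gene Ccl2 fell by 0.28 (limma adjusted p = 0.0136).

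Among 20 other complement genes, 6 were higher and 4 lower at P1 in each genotype. Cfp, properdin, which stabilizes the alternative pathway convertase, had the largest change, 4.28 in knockout brain (SE 0.25, limma adjusted p = 2.56e-07) and 3.85 in control brain (SE 0.15, limma adjusted p = 1.32e-07). C4b, a component of the classical pathway that C1q starts, rose by 0.96 (limma adjusted p = 4.23e-06) and 0.85 (limma adjusted p = 0.00125). Cd59a, an inhibitor of the membrane attack complex, rose by 1.24 in control brain (limma adjusted p = 0.00455), with -0.19 on its second probe. That probe lay near the floor in control brain, at 5.99 at P1 and 6.18 at E15. C1qbp, a mitochondrial protein that binds C1q, fell by 0.83 (limma adjusted p = 0.00388).

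Of 18 lysosomal genes, the family around cathepsin S, 7 were higher and 2 lower in control brain (median 0.17), and 3 were higher and 2 lower in knockout brain (median 0.15). Psap, the precursor of lysosomal activator proteins, rose by 1.58 in control brain (limma adjusted p = 0.000164). Grn, progranulin, had 1.56 in control brain (limma adjusted p = 0.00228) and 0.13 in knockout brain (limma adjusted p = 0.902), and its second probe gave -0.03 and -0.11 in the same brains. Ctsz, another cathepsin gene, had 1.39 in control brain (limma adjusted p = 0.00461) and -0.38 on its second probe. Lgmn, the protease legumain, rose by 0.70 (limma adjusted p = 0.00774). Of 24 tested genes of activation and inflammation, none was higher and 5 were lower in control brain. Changes were of small size, such as -0.39 for the receptor kinase gene Axl and -0.25 for Cd74, the invariant chain. Mean control levels at P1 and E15 were 6.08 and 6.46 for Axl and 6.41 and 6.66 for Cd74. These lie near the floor, where the offset makes changes look smaller.

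In control brain 9 of 12 astrocyte markers were called higher and none lower (median 0.83), and the other 3 had changes below 0. Of 11 neuron markers 7 were called higher and none lower (median 1.06). Oligodendrocyte lineage markers were higher in 2 of 10. Erythroid markers were lower in 6 of 9 and higher in 1, and endothelium and pericyte markers lower in 6 of 16. For other blood cells, 4 of 10 neutrophil and monocyte markers were called higher and 1 lower, 2 of 12 lymphocyte markers were lower, and 1 of 8 mast cell markers was higher and 1 lower. Of those 4, Ngp, Ccr2 and Camp were each well above background in 3 of 14 E15 control channels and passed the filter through P1, so their E15 levels are not well measured and no size is given. Mpo, the myeloperoxidase of neutrophils, was well above background in all channels and had a change of 0.35. Of 15 skeletal muscle markers 1 was lower. The part of these cells in the members' values was not tested.

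**Figure D3:**
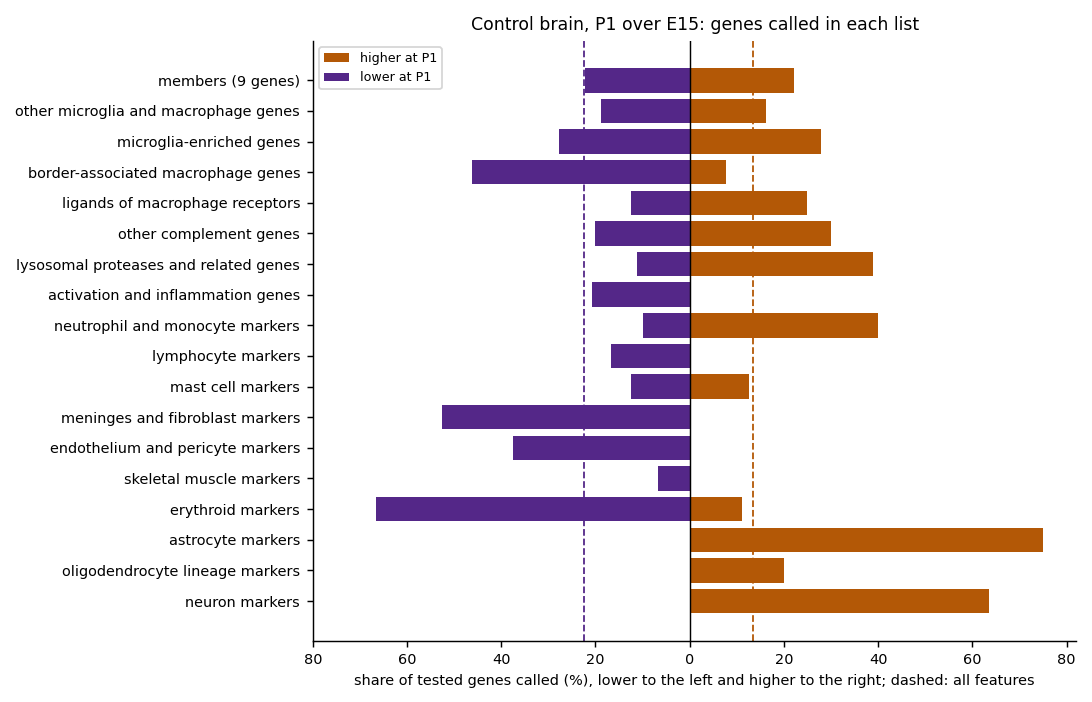
Share of tested genes (x axis, percent) called higher at P1 (right) or lower at P1 (left) in control brain for the members and 17 other gene lists; dashed lines mark the shares over all features, 13.5% higher and 22.4% lower. Border-associated macrophage genes (6 of 13 lower) and meninges and fibroblast markers (10 of 19 lower) extend to the left, astrocyte markers (9 of 12 higher) to the right.

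The knockout comparison asked whether loss of Agtr2 went with a change in these RNAs. At P1 limma called 0 of 23507 features (0% of features; 2179 at an unadjusted p under 0.05), and so none of the 8 members tested. At E15 it called 0 of 24147 (0% of features; 1601 at an unadjusted p under 0.05), and none of the 9 members. Values are log2 knockout over control, 1 per knockout replicate.

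At P1 the member changes lay between -0.23 and 0.15. Csf1r had -0.61, -0.05, -0.10 and -0.15 in replicates 1 to 4, all below 0, with a mean of -0.23 (SE 0.10, limma adjusted p = 0.565). Replicate 1 set much of that size, and without it the mean was -0.10. The other probes of Csf1r averaged 0.01 and -0.10. Tyrobp had 0.42, 0.08, 0.13 and -0.01, with a mean of 0.15 (SE 0.08, limma adjusted p = 0.613), and replicate 1 was again the farthest from 0. The value of replicate 2 rests on a single dye orientation, since its other spot was marked as an outlier.

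Mrc1 values at P1 were 0.61, -0.11, -0.40 and -0.02, and Ctss values were -0.34, 0.26, -0.27 and 0.34. Both genes varied between pairs more than they differed from 0, with means of 0.02 (SE 0.16) and -0.003 (SE 0.14). C1qb had -0.54 and 0.28 in replicates 1 and 2, each from a single dye orientation, and 0.02 and -0.17 in replicates 3 and 4 (mean -0.10, SE 0.14). On the probes that stand for them, C1qc, Cx3cr1 and Aif1 stayed within -0.18 to 0.13 in every replicate, with means of -0.02, -0.02 and 0.01. The second probe of Cx3cr1, A_52_P99810, was below 0 in all 4 replicates, from -0.41 to -0.02, with a mean of -0.15. The second Aif1 probe, A_52_P2754, ran from -0.19 to 0.16, with a mean of 0.04. C1qa was not tested, because replicate 4 alone had a value, -0.12. With its outlier-marked spots kept the change was 0.14 (limma adjusted p = 0.746).

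At E15 most member means lay slightly below 0, and 1 of 9 was above 0, against 46.4% of all features. The 9 means are not separate observations. Over the 8 replicates, r between members ran from -0.435 (Aif1 and Cx3cr1) to 0.969 (Aif1 and Tyrobp). Tyrobp was below 0 in 7 of 8 replicates, from -0.43 through a median of -0.11 to 0.15, with a mean change of -0.16 (SE 0.07, p = 0.0537, limma adjusted p = 0.745). Mrc1 had the widest spread, from -0.81 through -0.27 to 0.60 (mean -0.22, SE 0.19, limma adjusted p = 0.814). C1qc ran from -0.73 through -0.21 to 0.33 (mean -0.20, SE 0.13, limma adjusted p = 0.753), and Ctss from -0.41 through -0.24 to 0.34 (mean -0.10, SE 0.11, limma adjusted p = 0.839). The other 5 genes had means between -0.09 (Csf1r) and 0.03 (Cx3cr1).

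In replicates 1 to 4, scanned on day 3, Tyrobp averaged -0.31, Mrc1 -0.51, C1qc -0.43 and Ctss -0.31. In replicates 5 to 8, scanned on days 1 and 2, the same genes averaged -0.03, 0.08, 0.02 and 0.11. All 4 day 3 replicates were below 0 for Tyrobp, C1qc, Ctss and C1qb. For Mrc1 the highest values were those of replicates 7 and 8, 0.34 and 0.60, and for Ctss that of replicate 6, 0.34. Replicate 5, with -0.81 for Mrc1 and -0.46 for C1qc, was low for these genes although it was not scanned on day 3. With scan day as a block, the mean gave equal weight to replicates 1 to 4 (day 3), 6 and 7 (day 2), and 5 and 8 (days 1 and 2). It was -0.12 for Tyrobp, -0.13 for Mrc1, -0.14 for C1qc and -0.03 for Ctss, and none was called. Replicates 1 to 4 count for less in such a mean than in the plain mean, so its smaller size is not a correction for scan day. Replicates 1, 4 and 7 and replicates 2, 3 and 8 share control animals, so these values are not independent.

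**Figure D4:**
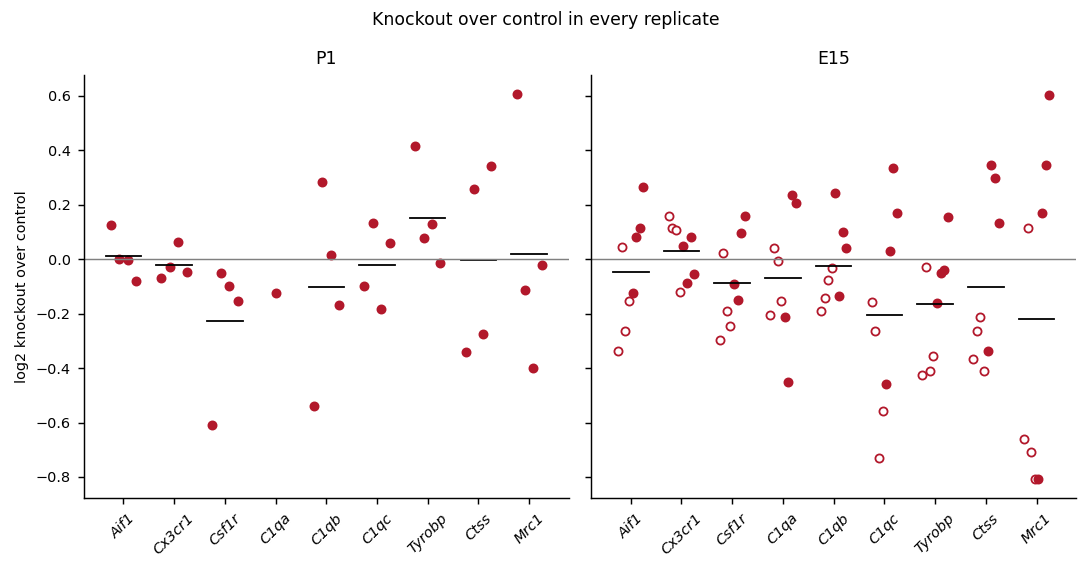
Log2 knockout over control (y axis) of the 9 genes (x axis) in each replicate at P1 and at E15; lines are means, and open E15 points are replicates 1 to 4, scanned on day 3. C1qa has a single P1 value, -0.12, and Mrc1 has the widest E15 spread, -0.81 to 0.60.

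The change in the knockout was not shown to differ between the ages for any member tested. Limma called 0 of 22262 features (0% of features; 982 at an unadjusted p under 0.05) for the difference, P1 minus E15. Tyrobp had the smallest p of the members, with a difference of 0.32 (SE 0.12, p = 0.0247, limma adjusted p = 0.972), from a mean of 0.15 at P1 and -0.16 at E15. The other 7 members tested had differences between -0.14 and 0.24.

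Counts over the further lists gave no call in the knockout comparisons at either age or in their difference. At P1 the median change was -0.02 over the 34 tested genes of other microglia and macrophages, 0.02 over 18 microglia-enriched genes and 0.03 over 13 border macrophage genes, against 0.01 over all features. At E15 these medians were -0.02 over 35 genes, -0.04 over 17 and -0.07 over 12, against -0.01 over all features. Lysosomal genes had lower medians, -0.12 at P1 (5 of 17 above 0, against 55.7% of all features) and -0.12 at E15 (3 of 18 above 0, against 46.4%). At E15 the medians of meninges and fibroblast markers (-0.15, 2 of 20 above 0) and skeletal muscle markers (-0.39, 1 of 16 above 0) were lower still. Neuron markers had a median of -0.23 at P1 and 0.15 at E15, and astrocyte markers -0.17 and -0.07. The meninges and fibroblast markers had a median over genes that ran from -1.46 to 2.24 across the E15 replicates and from -0.24 to 0.29 across the P1 replicates (20 genes).

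The level of Mrc1 was set against the mean level of the 20 meninges and fibroblast markers in each E15 animal, with Cx3cr1 beside it, in 4 relations. Across the 8 E15 knockout animals Mrc1 rose with the markers, with Pearson's r = 0.765 (exact permutation p = 0.0035, 0.014 after adjustment). Spearman's rho was 0.619 (exact permutation p = 0.115, 0.432 after adjustment). The relation rested on 2 animals, replicates 7 and 8, which had Mrc1 levels of 7.61 and 7.73 and marker levels of 8.41 and 10.09. Without the 2 animals farthest from the median marker level r was 0.414. The 6 E15 control animals gave r = 0.342 (exact permutation p = 0.515, or 0.687 adjusted for the 4 relations) and -0.339 without the 2 farthest. Their rho was 0.371 (exact permutation p = 0.497, 0.663 after adjustment). For Cx3cr1, r was -0.671 in knockout animals (exact permutation p = 0.0742, 0.148 after adjustment) and -0.625 without the 2 farthest, with rho = -0.5 (exact permutation p = 0.216, 0.432 after adjustment). Control animals gave r = 0.0117 for Cx3cr1 (exact permutation p = 0.988, and 0.988 adjusted) and 0.565 without the 2 farthest, with rho = 0.143 (exact permutation p = 0.803, 0.803 after adjustment). Scan day moved with Mrc1 in knockout animals, whose mean level was 6.79 on day 3 and 7.31 on days 1 and 2, where replicates 7 and 8 lie. No scan day held 6 animals of 1 genotype for an r of its own. With both levels centred within day 3 and within days 1 and 2, and orders permuted within these sets, Mrc1 in knockout animals had r = 0.691 (exact permutation p = 0.0156, or 0.0312 adjusted for 2 relations) and rho = 0.714 (exact permutation p = 0.0365, or 0.0729 adjusted). Cx3cr1 had r = -0.584 (exact permutation p = 0.33) and rho = -0.476 (exact permutation p = 0.365). This setting was added after seeing the data, and it was not run in controls, some of which span the sets.

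**Figure D5:**
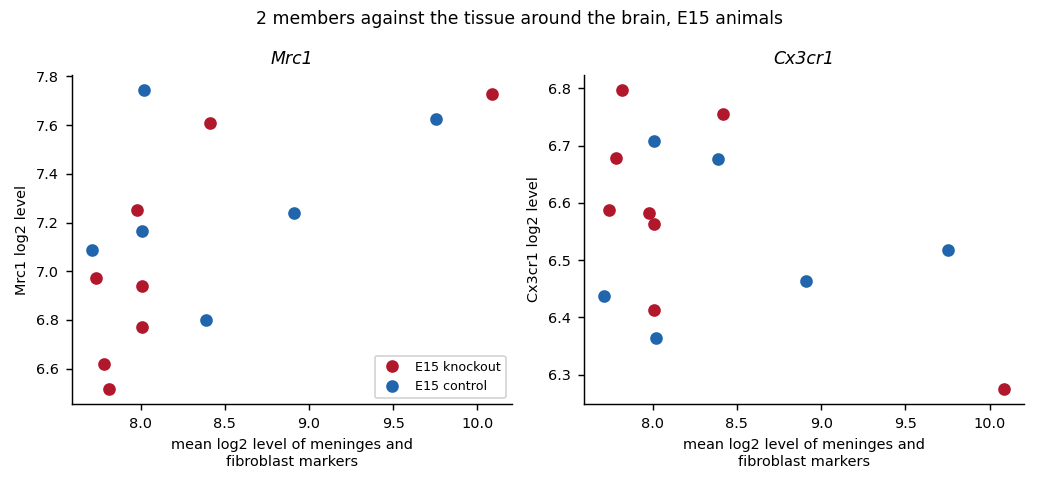
Log2 level (y axes) of Mrc1 and Cx3cr1 against the mean log2 level of 20 meninges and fibroblast markers (x axis) in the 8 knockout and 6 control animals of E15. Knockout replicate 8 lies far to the right at a marker level of 10.09, with Mrc1 at 7.73 and Cx3cr1 at 6.27.

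Among 21903 features outside the lists, those whose levels over the 22 animals, centred within each age, were most like the median of the members other than Mrc1 were Wdr86 (Pearson's r = 0.797), Mok, Nxn, Sil1, Mal, Dhh, Cope and Fes (r = 0.777). Within the 14 E15 animals these r lay between 0.795 (Mal) and 0.870 (Sil1), and within the 8 P1 animals between 0.175 (Sil1) and 0.840 (Mal). The features most like Mrc1 were Ddx10 (r = 0.832), Cyp1b1 (r = 0.830), Anxa3, Col4a1 (r = 0.804), Arhgap29, Ppp1r2, Uba7 and Ms4a6b (r = 0.781). For these r lay between 0.766 (Ms4a6b) and 0.882 (Ppp1r2) at E15 and between 0.564 (Ppp1r2) and 0.891 (Anxa3) at P1. These values are descriptions of 22 animals that share arrays in pairs and scan days in groups, and they carry no test.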

How the data were processed

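RNA of whole mouse brain was measured on 22 two-colour Agilent arrays. Per the file headers, the deposited intensities are mean spot signals and median local backgrounds in both channels, read with Feature Extraction 8.5.1.1 (P1) and 8.1.1.1 (E15). The log10 ratios set red over green processed signals, per the file headers, and the deposited matrix held the same ratios within 0.005. Spots were background-corrected here by normexp (offset 50), normalized by loess, set to missing where marked as outliers, and turned to log2 knockout over control. A missing dye orientation was filled by subtracting the mean dye effect of the age. For levels, channels were separated after Aquantile normalization. Features needed a signal well above background in 50% of channels at the age, or at either age for age comparisons, at least 3 replicate values in knockout comparisons and 2 animals per age in age comparisons. limma 3.58.1 in R 4.3.3 (statmod 1.5.0) tested all features, with Benjamini-Hochberg adjustment and a threshold of 0.05. E15 replicates sharing controls formed a random block (correlation 0.0507 at E15, and 0.067 for the difference of the knockout change between the ages). The comparisons of P1 with E15 within a genotype had no block. Pairing comes from the array. The scripts were tested on simulated data. Names came from RefSeq (21445 probes by accession, 5431 by symbol, 4636 by synonym) or the files (1475), and 8187 probes had none.

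The members and 17 other lists were chosen with earlier results of these data known. All members and up to 4 called genes per list were to be named. A result that this rule would name is not reported here. Alternatives covered background, signal, normalization, filters, outliers, probes, dyes, blocks and each left-out animal.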

Additional observations from a re-analysis of the deposited data

How the results depend on the processing

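The knockout comparisons called 0 members at P1, at E15 and in their difference under every alternative run, among them the deposited log ratios, scanner processed signals and, in place of the paired values, no replicate block (0 members at P1 and 0 at E15). Scan day could not be a block at P1, with 1 day. The count for control brain was 4 in the report (36% of all features). It was 0 with no normalization between arrays (21.4% of features) and 0 with red channels only (20.8%). With green channels only it was 2 (26.2%), and against E15 arrays of scan days 1 and 2 it was 2 (38.3%). When an animal was left out it was 2 to 4 (27.2% to 37.7%). The count for knockout brain was 2 in the report (26.5% of features). It was 0 with no normalization between arrays (15.6%), 1 with red channels only (20.1%) and 0 to 3 when an animal was left out (17.7% to 29%). For Aif1 in control brain the call was lost without P1 control 1 (0.30, adjusted p = 0.0572) or 3 (0.29, 0.0678). Tyrobp in control brain lost it without E15 control 1 (0.40, 0.052) or 3 (0.44, 0.057) or P1 control 2 (0.45, 0.0677), 3 (0.38, 0.0996) or 4 (0.45, 0.0708). Mrc1 lost it without P1 control 1 (-0.56, 0.071) or 4 (-0.53, 0.083). In knockout brain Tyrobp lost it without P1 knockout 1 (0.80, 0.0595), 2 (0.84, 0.0524) or 3 (0.77, 0.0731), and Aif1 gained it without E15 knockout 8 (0.48, 0.0411). C1qa in control brain gained it without E15 control 1 (0.58, 0.0421), with processed signals (0.96, 0.0432) and with quantile normalization (0.57, 0.0427). Without P1 animal 3 or 4 C1qa had too few values for a test. The offset compresses changes: with an offset of 0, Mrc1 in control brain was -1.17, C1qc -0.68, Tyrobp 0.70 and Aif1 0.52, and in knockout brain Tyrobp was 1.28 and C1qa 0.97, with the same calls.

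Among values under alternatives, 595 kept direction and side of the threshold, 30 lost the call and 8 gained it. The 34 that changed sign were small and had adjusted p of 0.461 or more. At E15 C1qb, knockout over control, was 0.033 with median centring and 0.0043 with scan day as a block. At P1 Aif1 was -0.026 (offset 0), -0.0152 (processed signals), -0.0151 (deposited ratios) and -0.0025 (median centring), and Ctss was 0.0146 with processed signals, 0.0146 with deposited ratios and 0.0129 with median centring. With an animal left out at P1, Aif1 ran from -0.027 to 0.040, C1qb from -0.23 to 0.044, C1qc from -0.074 to 0.032, Ctss from -0.12 to 0.11 and Mrc1 from -0.18 to 0.16. In control brain, P1 over E15, Cx3cr1 was 0.21 with processed signals, 0.059 over all probes and 0.0045 with red channels only, Csf1r was -0.0051 with green channels only, C1qb was 0.036 with processed signals, 0.0072 with outlier spots kept and 0.092 with red channels only, and Ctss was -0.11 with no normalization between arrays. With an animal left out Cx3cr1 ran from -0.087 to 0.012, C1qb from -0.11 to 0.019 and Ctss from -0.028 to 0.16. In knockout brain C1qb was 0.17 with red channels only, C1qc 0.029 against E15 arrays of day 3 and Ctss -0.00013 against those of days 1 and 2, and Csf1r ran from -0.080 to 0.019 with an animal left out. The causes were not tested. With scanner processed signals the 4 relations had r = 0.726, -0.719, 0.273 and 0.299, with the same calls. Centred within scan day sets, Mrc1 in knockout animals had 0.691 and Cx3cr1 -0.584, again with the same calls by Pearson's r.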
